A study of Mus musculus with 4 samples.

Results

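The genes described here are the receptors for glucocorticoid hormones and a set of genes known to respond to them, measured in mouse brain with and without the DNA damage kinase Atm. The set holds 10 genes. Nr3c1 and Nr3c2 encode the glucocorticoid and mineralocorticoid receptors, and Fkbp5, Sgk1, Tsc22d3, Klf9, Hsd11b1, Pdk4, Ddit4 and Sult1a1 are the 8 responsive genes, called targets here. They were chosen by gene symbol in the platform's probe annotation, which gave 16 probes of the 45281 on the array, 3 for the receptors and 13 for the targets. Brain total RNA was read on Illumina bead arrays, 2 arrays of Atm-/- mice and 2 of Atm+/+ mice, all of a mixed 129J x C57BL/6 background. The labels used here give no Atm allele, age, sex, time of day or dissected region, and do not say if replicates are different animals. The p-values then cover only the spread between these arrays, which could be technical.

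Glucocorticoids, in the mouse mainly corticosterone, are released from the adrenal gland under stress and in a daily rhythm. In the cell they bind the receptors, which are held ready by Hsp90 and its co-chaperones, move to the nucleus and bind glucocorticoid response elements in DNA. The mineralocorticoid receptor binds corticosterone more tightly than the glucocorticoid receptor does and is known for its expression in the hippocampus. Enzymes within the tissue set how much active hormone reaches the receptors.

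The response element was looked for in the promoters of the set, to show where a receptor could meet DNA at these genes. RefSeq promoter windows of build GRCm38.p6, running from 250 bases before a gene's start to 50 after it, were searched for 9 of 10 genes. Windows on 1 chromosome were left out of the member search, and no window of Nr3c1 was searched. The shares over all windows, given below, left out none. The member windows came to 16, because Sgk1 has 6 alternative starts and Tsc22d3 has 3. A half-site was searched as AGAACA, and the full element as that half-site, 3 bases of any kind and its reverse complement, with any base allowed at the first and the third position of the half-site and at the positions paired with them. Both were searched on both strands, and a half-site could overlap a full element. A full element stood in 1 of the 16 windows, an Sgk1 window at chr10:21993640-21993939 on the plus strand, where it reads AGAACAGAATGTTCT. Its 13 bases between the free outermost ones ran from position -188 to -176, counted with 0 at the first base of the transcript. Among all 32851 windows in the table, 0.475% held a full element. A stricter form, with every half-site base fixed, was added after this match had been seen. It stood in the same Sgk1 window alone of the 16 and in 0.00913% of all windows, a share that cannot be read as evidence because the form was chosen on the match. A half-site stood in 5 of the 16 windows, in Sgk1, Tsc22d3 and Sult1a1, and in 19.0% of all windows. The Sgk1 window with the full element is printed with half-sites in capitals, followed by the windows of the 3 genes whose probes passed the test of genotype: Fkbp5 (chr17:28486100-28486399, minus strand), Ddit4 (chr10:59951721-59952020, minus strand) and Hsd11b1 (chr1:193242311-193242610, minus strand). These last windows held neither form, which says only that these letters are not in these windows.
Sgk1: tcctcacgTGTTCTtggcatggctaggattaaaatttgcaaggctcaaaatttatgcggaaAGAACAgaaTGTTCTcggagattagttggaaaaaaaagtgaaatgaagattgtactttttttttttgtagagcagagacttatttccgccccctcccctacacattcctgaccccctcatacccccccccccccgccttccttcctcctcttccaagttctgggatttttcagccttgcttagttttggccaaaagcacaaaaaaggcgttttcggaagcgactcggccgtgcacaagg
Fkbp5: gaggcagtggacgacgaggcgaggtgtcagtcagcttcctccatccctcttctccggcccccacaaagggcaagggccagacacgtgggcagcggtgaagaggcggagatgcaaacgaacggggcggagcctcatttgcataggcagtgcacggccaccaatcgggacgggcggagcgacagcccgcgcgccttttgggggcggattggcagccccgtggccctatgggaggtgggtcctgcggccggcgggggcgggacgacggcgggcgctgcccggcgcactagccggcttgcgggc
Ddit4: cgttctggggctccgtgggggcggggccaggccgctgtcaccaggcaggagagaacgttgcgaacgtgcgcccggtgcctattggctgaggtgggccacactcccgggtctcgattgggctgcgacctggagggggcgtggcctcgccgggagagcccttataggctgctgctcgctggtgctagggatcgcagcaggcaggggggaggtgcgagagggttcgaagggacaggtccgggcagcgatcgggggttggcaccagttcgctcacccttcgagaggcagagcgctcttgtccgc
Hsd11b1: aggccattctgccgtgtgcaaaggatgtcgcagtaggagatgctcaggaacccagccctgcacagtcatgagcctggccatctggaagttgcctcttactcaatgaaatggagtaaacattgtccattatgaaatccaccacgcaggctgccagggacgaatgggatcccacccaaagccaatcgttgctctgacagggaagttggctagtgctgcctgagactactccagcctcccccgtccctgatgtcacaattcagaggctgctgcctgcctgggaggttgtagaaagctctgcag

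Values are log2 signals as the authors deposited them. A background level of 5.64 was set from all values, and a probe was tested if it exceeded it on at least 2 arrays, as 22383 probes did. Changes are Atm-/- minus Atm+/+, fitted over all tested probes with limma and adjusted by the Benjamini-Hochberg method, and a probe with an adjusted p under 0.05 is said to have risen or fallen. Across the array 13.0% of tested probes passed, 6.98% higher and 6.06% lower in Atm-/-, and the median change was 0.00. The Atm+/+ arrays lay further apart, with a median gap of 0.19 between the Atm-/- arrays and 0.40 between the Atm+/+ arrays.

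Atm itself has 4 probes, which did not all show its loss. ILMN_1258206 read 5.59 and 5.27 in Atm-/- and 7.75 and 7.84 in Atm+/+, at least 4.46-fold lower in Atm-/- (adjusted p = 0.00224 with limma), and ILMN_2783896 read 5.09 and 5.14 in Atm-/- and 6.25 and 6.67 in Atm+/+, at least 1.77-fold lower in Atm-/- (adjusted p = 0.0205 with limma). Both folds are bounds, since both probes were under background in Atm-/-. These probes were tested only because both Atm+/+ arrays were above background. Their p-values take the Atm-/- readings under background at face value. The brightest probe, ILMN_2492491, read 9.66 and 10.61 in Atm-/- and 9.72 and 9.32 in Atm+/+, so the genotypes overlapped, with a change of 0.61 and a 95% interval of -0.25 to 1.48 (limma adjusted p = 0.308). ILMN_2647620 was too dim to be tested, at 5.05 and 5.21 in Atm-/- and 5.74 and 5.28 in Atm+/+. Where the probes lie relative to the targeted part of the gene was not analysed here, and a probe outside that part would not check the labels.

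Region, cell type and activity markers differed between the genotypes in the same samples. In Atm-/- the signal was higher for 10 of 11 tested forebrain markers (genes of cortex, hippocampus or striatum) and for 11 of 12 immediate early genes, which neurons switch on with activity. Of 9 cerebellar markers 8 were lower, and of 10 of brainstem and hypothalamus 9 were lower. Among all tested genes, by the brightest tested probe of each, 7.50% were higher and 6.89% lower. The mean log2 signal of the forebrain list was 10.78 to 10.82 in Atm-/- and 7.23 to 7.32 in Atm+/+, and that of the cerebellar list was 7.11 in Atm-/- and 11.02 to 11.22 in Atm+/+. The cerebellar markers Gabra6, Pcp2, Zic2 and Barhl1 did not exceed background on either Atm-/- array, nor did the forebrain markers Tbr1, Emx1, Icam5 and Drd1 on either Atm+/+ array. The same held for 3 brainstem and hypothalamus markers in Atm-/- and for 2 immediate early genes in Atm+/+. All of these were tested only because both arrays of the other genotype were above background, which fixed their direction. Genotype and the brain regions sampled cannot be told apart in these samples. In bulk RNA, fewer cells of a type and less RNA per cell cannot be told apart either.

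**Figure D1:**
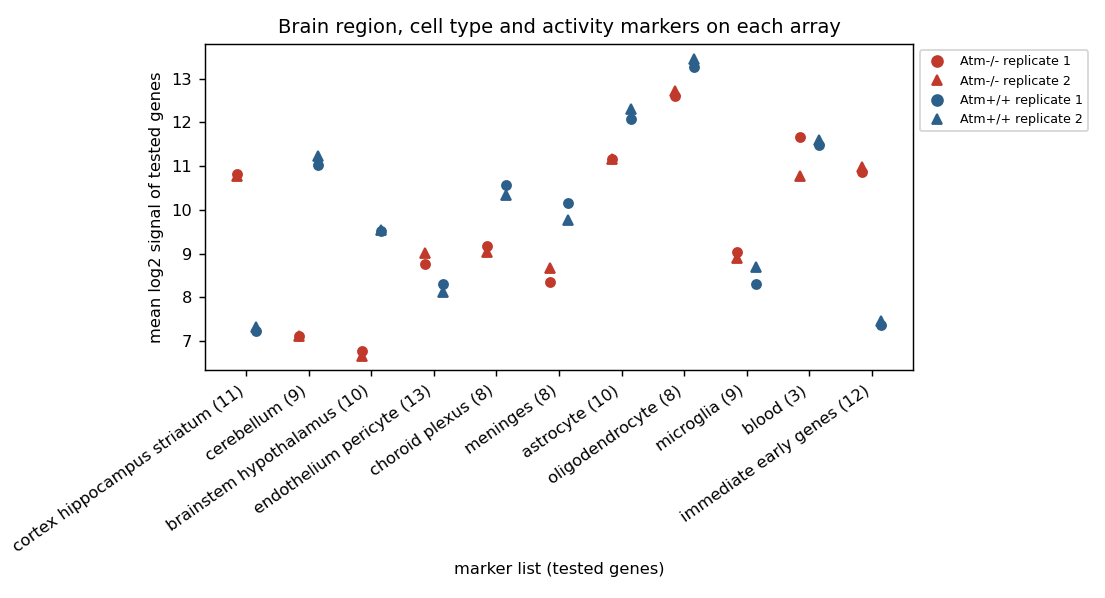
Mean log2 signal (vertical axis) of the tested genes of each marker list (horizontal axis, number of tested genes in brackets) on each array, Atm-/- in red and Atm+/+ in blue, circles for replicate 1 and triangles for replicate 2. Forebrain markers and immediate early genes are higher in Atm-/-, and cerebellar, brainstem, choroid plexus and meningeal markers are lower.

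The receptors were read near or under background. Nr3c1 has 1 probe, ILMN_2740568, which read 5.52 and 5.49 in Atm-/- and 5.82 and 5.81 in Atm+/+. The genotypes did not overlap, but both Atm-/- values were below the background level and both Atm+/+ values only just above it. The Atm+/+ mean was only 1.13-fold above the background level, and the probe did not pass the threshold (limma adjusted p = 0.440). The difference in the fit was -0.31 ± 0.25 (SE, n = 2 per genotype) with a 95% interval of -0.89 to 0.27, and it takes the Atm-/- readings under background at face value. It was tested only because both Atm+/+ arrays were above background.

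Nr3c2 was at background on 7 of its 8 readings. Probe ILMN_2648549 read 5.12 and 5.33 in Atm-/- and 4.87 and 5.78 in Atm+/+, so that the Atm+/+ values lay on both sides of the Atm-/- ones. Probe ILMN_2751258 read 4.77 and 4.75 in Atm-/- and 4.90 and 4.71 in Atm+/+, again with overlap. Neither probe could be tested, and a change of Nr3c2 was not measurable with these probes.

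Of the 12 tested target probes, 2 rose and 3 fell, the 3 falls being of 1 gene. By the brightest tested probe of each gene, 2 of the 8 targets rose (Ddit4 and Fkbp5) and 1 fell (Hsd11b1), against 7.50% higher and 6.89% lower, 14.4% in all, among the 12229 genes tested. The genotypes did not overlap at 11 of the 12 target probes, and at 59.8% of all tested probes.

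**Figure D2:**
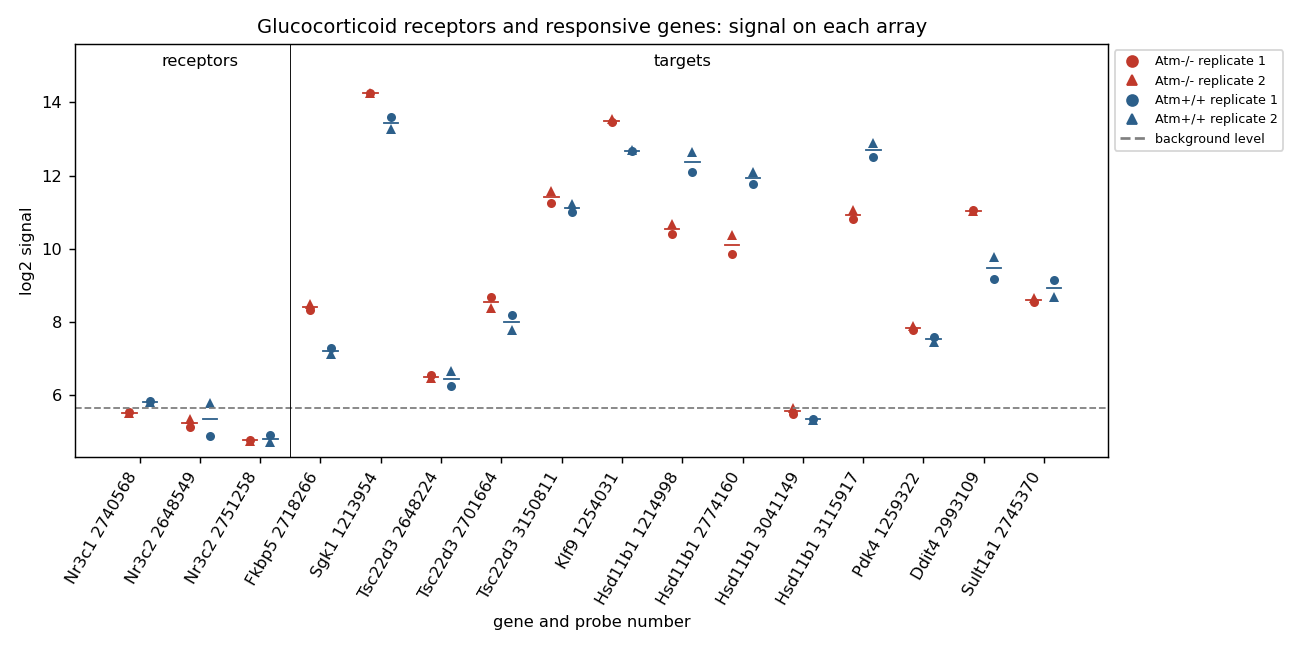
Log2 signal (vertical axis) of the 16 probes (horizontal axis) on each array, Atm-/- in red to the left of Atm+/+ in blue, with circles for replicate 1, triangles for replicate 2, bars for the means and a dashed line at the background level of 5.64. The receptor probes lie along that line or below it, and all target probes except 1 of Hsd11b1 lie above it.

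Hsd11b1 had the largest fall of the set. It encodes the enzyme that regenerates active glucocorticoid from its inactive keto form inside the cell, and is known for its expression in brain neurons as well as in liver and fat. Probe ILMN_1214998 read 10.39 and 10.67 in Atm-/- and 12.09 and 12.65 in Atm+/+. The Atm-/- values were well below both Atm+/+ values, and the probe fell by 1.84 ± 0.30 (SE, n = 2 per genotype), or 3.59-fold, with a limma adjusted p of 0.00934.

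A pair of further Hsd11b1 probes gave nearly the same change. ILMN_2774160 read 9.84 and 10.38 in Atm-/- and 11.76 and 12.09 in Atm+/+, and was 3.51-fold lower in Atm-/- (adjusted p = 0.0102 with limma). ILMN_3115917 read 10.80 and 11.06 in Atm-/- and 12.50 and 12.90 in Atm+/+, and was 3.42-fold lower in Atm-/- (adjusted p = 0.00833 with limma). The 3 probes share 1 annotated transcript and the same samples, so they are not independent of each other. The last probe, ILMN_3041149, was too dim to be tested, at 5.48 and 5.65 in Atm-/- and 5.35 and 5.30 in Atm+/+, and did not show the fall.

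The Hsd11b1 calls depended on which genotype lost an array, since the other genotype's pair alone then gave the spread. Without Atm-/- replicate 1 the adjusted p of the 3 probes was 0.105 to 0.137, and without Atm-/- replicate 2 it was 0.0407 to 0.0634, with 1 of the 3 still past the threshold. The change itself stayed between -2.12 and -1.54 whichever array was left out. Also lower in Atm-/- were 7 of 8 choroid plexus, 5 of 8 meningeal, 4 of 10 astrocyte and 2 of 8 oligodendrocyte markers. Among all tested genes 6.89% were lower. The cerebellar, brainstem and hypothalamic markers described above were mostly lower too. The part of all these markers in the fall of Hsd11b1 was not tested. The mean log2 signal of the meningeal list was 8.34 to 8.68 in Atm-/- and 9.77 to 10.16 in Atm+/+, that of the choroid plexus list 9.05 to 9.16 in Atm-/- and 10.34 to 10.56 in Atm+/+, and that of the astrocyte list 11.17 in Atm-/- and 12.07 to 12.31 in Atm+/+.

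Ddit4 rose the most. Its product, also called REDD1, restrains the growth kinase mTORC1, and the gene responds to glucocorticoids, low oxygen and DNA damage. Probe ILMN_2993109 read 11.04 and 11.04 in Atm-/- and 9.16 and 9.78 in Atm+/+. The Atm-/- values were almost equal while the Atm+/+ values were 0.63 apart, and the rise was 1.57 ± 0.30 (SE, n = 2 per genotype), or 2.97-fold (limma adjusted p = 0.0165).

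Fkbp5 rose as well. It encodes a co-chaperone of Hsp90 that lowers the glucocorticoid receptor's affinity for hormone, and its induction by the receptor forms a short feedback loop. Probe ILMN_2718266 read 8.32 and 8.48 in Atm-/- and 7.27 and 7.10 in Atm+/+, with an equally small gap in both genotypes. The rise was 1.21 ± 0.25 (SE, n = 2 per genotype), or 2.32-fold (limma adjusted p = 0.0240). Both rises were lost as calls when an Atm-/- array was left out, Ddit4 at an adjusted p of 0.147 without replicate 1 and 0.144 without replicate 2, and Fkbp5 at 0.222 without replicate 1 and 0.303 without replicate 2.

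Klf9 and Sgk1 were higher on both Atm-/- arrays than on both Atm+/+ arrays without passing the threshold. Klf9 encodes a Krüppel-like transcription factor induced by glucocorticoid and thyroid hormone in neurons. Its probe ILMN_1254031 read 13.46 and 13.54 in Atm-/- and 12.68 and 12.69 in Atm+/+, a change of 0.82 ± 0.25 with a 95% interval of 0.24 to 1.40 (limma adjusted p = 0.0716). The distance between the genotypes was far larger than the gaps of 0.08 in Atm-/- and 0.01 in Atm+/+. Sgk1, the serum- and glucocorticoid-regulated kinase of ion transport, read 14.26 and 14.25 in Atm-/- and 13.60 and 13.28 in Atm+/+ at ILMN_1213954. Its change was 0.82 ± 0.26 with a 95% interval of 0.20 to 1.42 (limma adjusted p = 0.0828).

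With an intensity trend in the variance prior both genes passed, Klf9 at an adjusted p of 0.0204 and Sgk1 at 0.0250. Neither passed in the other limma fits that kept all 4 arrays. The adjusted p there was 0.0551 to 0.0735 for Klf9 and 0.0668 to 0.0849 for Sgk1. Without Atm+/+ replicate 1 the change was 0.81 for Klf9 and 0.97 for Sgk1, and without Atm+/+ replicate 2 it was 0.83 and 0.66. Without Atm-/- replicate 1 it was 0.86 for Klf9 and 0.81 for Sgk1, and without Atm-/- replicate 2 it was 0.78 and 0.82. A fit with an array left out takes its spread from the other genotype's pair alone, so passing or missing the threshold there follows that pair. Their changes kept a positive sign in each of these fits.

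Tsc22d3 encodes the glucocorticoid-induced leucine zipper protein, which curbs inflammatory transcription, and its 3 probes are annotated to different transcripts. ILMN_2701664 read 8.68 and 8.39 in Atm-/- and 8.19 and 7.78 in Atm+/+, a change of 0.55 with a 95% interval of -0.11 to 1.20 (limma adjusted p = 0.238). ILMN_3150811 read 11.25 and 11.58 in Atm-/- and 11.01 and 11.23 in Atm+/+, with a narrower separation of 0.29 and an interval of -0.33 to 0.92. ILMN_2648224 overlapped, at 6.54 and 6.46 in Atm-/- and 6.24 and 6.64 in Atm+/+. The 3 probes did not pass, apart from ILMN_2701664 at an adjusted p of 0.0335 without Atm+/+ replicate 1, and their intervals allow a rise of up to 1.20.

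Pdk4 and Sult1a1 showed the smallest separations among the targets with 1 probe. Pdk4, a mitochondrial kinase that shuts down pyruvate dehydrogenase in fasting, read 7.76 and 7.88 in Atm-/- and 7.59 and 7.44 in Atm+/+, a change of 0.31 with an interval of -0.28 to 0.90 (limma adjusted p = 0.458). Sult1a1, a sulfotransferase of phenols, read 8.55 and 8.64 in Atm-/- and 9.14 and 8.69 in Atm+/+, a change of -0.32 with an interval of -0.96 to 0.33 (limma adjusted p = 0.480). For Sult1a1 the highest Atm-/- value and the lowest Atm+/+ value lay almost together, and the gap of 0.45 between the Atm+/+ arrays was larger than the change.

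**Figure D3:**
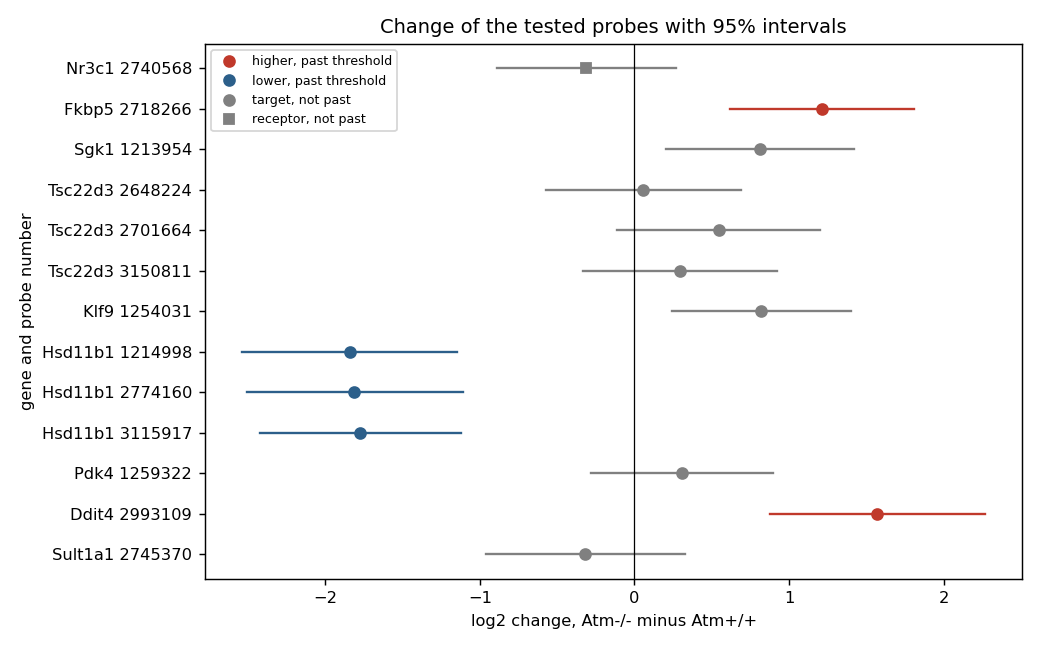
Log2 change, Atm-/- minus Atm+/+ (horizontal axis), of the 13 tested probes (vertical axis), with lines for the 95% intervals from the limma fit, red for a rise and blue for a fall past the threshold, grey otherwise, and a square for the receptor probe. The 3 Hsd11b1 probes lie near -1.8 together, Ddit4 and Fkbp5 lie above 1, and the intervals of Klf9 and Sgk1 do not reach 0.

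Set against the receptors, the targets did not move as 1 group. The 12 tested target probes had a median change of 0.30 and a mean of -0.01, and 6 of the 8 genes had a positive change at their brightest probe. The mean change of the target probes exceeded that of the 1 tested receptor probe, Nr3c1, by 0.30. With 1 probe per gene this difference was 0.68, and without the Hsd11b1 probes it was 0.90, both chosen after the data were seen. Including the dim probes it was 0.16. The contrast rests on a single receptor probe at the edge of background and carries no test.

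The genotypes differed in how leaving out an array moved these results. The gap between the Atm+/+ arrays was the wider one at 9 of the 13 tested probes, with a median gap of 0.11 between the Atm-/- arrays and 0.33 between the Atm+/+ arrays. Leaving out Atm+/+ replicate 1 or 2 raised the number of probes that rose to 5 or 4, and leaving out Atm-/- replicate 1 or 2 brought it to 0. The probes that fell numbered 3 without either Atm+/+ array, 0 without Atm-/- replicate 1 and 1 without Atm-/- replicate 2. All tested probes moved likewise: 679 or 666 passed when Atm-/- replicate 1 or 2 was left out, and 8320 or 7529 when Atm+/+ replicate 1 or 2 was left out, against 2919 with all 4 arrays.

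**Figure D4:**
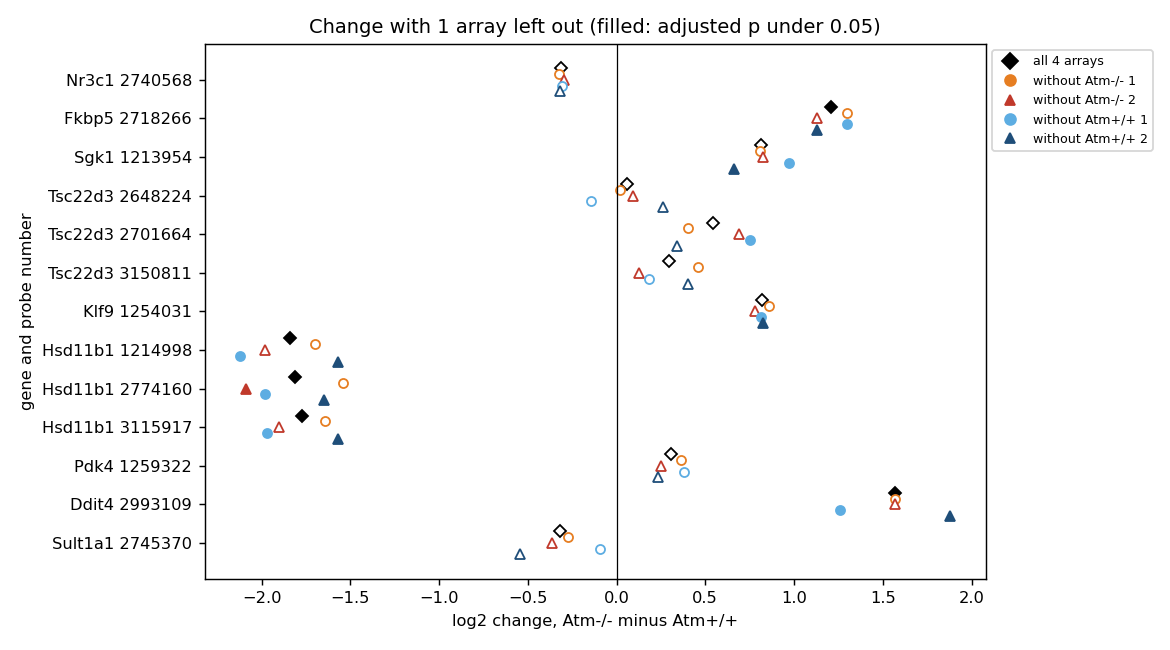
Log2 change, Atm-/- minus Atm+/+ (horizontal axis), of the 13 tested probes (vertical axis) with all 4 arrays and with each array left out in turn, filled where the adjusted p is under 0.05. Signs hold for every probe except Tsc22d3 ILMN_2648224, and filled symbols are mostly those with all arrays or without an Atm+/+ array.

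The other genes of the pathway were taken by role. Of 13 tested chaperones that fold and hold the receptors, Dnajb1, an Hsp40 co-chaperone of Hsp70, rose by 1.13 ± 0.27 (limma adjusted p = 0.0384), and 0 fell. This 1 of 13 compares with 14.4% of all tested genes. At an unadjusted p under 0.05, 3 were higher and 2 lower, where 15.7% of all tested genes were higher and 15.9% lower, 31.5% in all. These counts are near the shares over all genes. Of the 3 higher, 1 was under background on both Atm+/+ arrays and was tested only because both Atm-/- arrays were above it. Dnajb1 missed the threshold when either Atm-/- array was left out, at an adjusted p of 0.265 for replicate 1 and 0.374 for replicate 2, and with no filter on dim probes (0.0518). Fkbp4, the co-chaperone that opposes Fkbp5 at the receptor, read 12.38 and 12.14 in Atm-/- and 12.93 and 13.13 in Atm+/+. Its change of -0.77 ± 0.26 ran opposite to that of Fkbp5 and did not pass (limma adjusted p = 0.0953), although it did without Atm+/+ replicate 1 (0.0161) and with an intensity trend (0.0359). Leaving out Atm-/- replicate 1 or 2 gave an adjusted p of 0.453 or 0.620 for Fkbp4. Hsp90aa1, an Hsp90 gene itself, had a change of -0.34 ± 0.41 at its brightest probe, with Atm+/+ values of 12.60 and 11.36 on either side of the Atm-/- values of 11.56 and 11.72. The change of that probe was -0.96 without Atm+/+ replicate 2 and 0.28 without Atm+/+ replicate 1. A dimmer Hsp90aa1 probe, ILMN_2752883, did not overlap, at 6.82 and 7.39 in Atm-/- and 7.92 and 7.60 in Atm+/+. Its change of -0.66 did not pass either (limma adjusted p = 0.192). Probe ILMN_2662557 of the same gene was too dim to be tested.

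Of 7 tested coregulators, Tbl1xr1, a subunit of the nuclear receptor corepressor complex, rose by 1.00 ± 0.25 (limma adjusted p = 0.0435) and 0 fell. At an unadjusted p under 0.05, 2 were higher and 0 lower. These counts too are near the 14.4% and 31.5% of all tested genes. Tbl1xr1 likewise missed it when an Atm-/- array was left out, at 0.333 for replicate 1 and 0.437 for replicate 2. The coactivator gene Ncoa1 was too dim to be tested, at 5.44 and 5.33 in Atm-/- and 5.97 and 5.30 in Atm+/+.

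Genes of hormone access were mostly unreadable. Of 9 on the array 3 were tested and 0 passed with limma, 0 of them at an unadjusted p under 0.05. Among all tested genes 14.4% passed, and 31.5% had an unadjusted p under 0.05, so 0 of 3 says little. Hsd11b2, which inactivates the hormone that Hsd11b1 regenerates, read 5.16 to 5.44 in Atm-/- and 5.22 to 5.67 in Atm+/+ over its 2 probes. The efflux pump gene Abcb1a, which keeps corticosteroids out at the blood-brain barrier, read 5.23 and 4.96 in Atm-/- and 4.93 and 5.34 in Atm+/+.

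Of 4 tested peptides and receptors of the stress axis, 1 rose, 0 fell and 3 did not pass. Among all tested genes 7.50% rose and 6.89% fell. The list's median change was -0.06. The gene that rose was Crhbp, which binds and neutralizes corticotropin-releasing hormone and is known for expression in cortical neurons among others. Crhbp rose by 1.98 ± 0.31 (limma adjusted p = 0.00805). It read 10.95 and 11.53 in Atm-/- and 9.09 and 9.44 in Atm+/+, but did not pass once Atm-/- replicate 2 was left out (adjusted p = 0.102). The forebrain markers described above were higher in the same samples, and their part in the rise of Crhbp was not tested. Crh itself was at background on all 4 arrays, at 4.83 and 5.02 in Atm-/- and 4.96 and 4.85 in Atm+/+.

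A further list of 30 glucocorticoid-responsive genes, of which 28 were tested, gave 3 that rose and 0 that fell with limma, beside 7.50% higher and 6.89% lower among all tested genes. Its median change was 0.38 beside the 0.00 of all tested probes. Before adjustment, 10 were higher and 3 lower at p under 0.05, beside 15.7% and 15.9% of all tested genes. Dusp1, a phosphatase that switches off MAP kinases, read 12.51 and 12.47 in Atm-/- and 10.67 and 10.43 in Atm+/+, and rose by 1.94 ± 0.25 (limma adjusted p = 0.00457). Per1, a clock gene that glucocorticoids induce, rose by 1.90 ± 0.35 (limma adjusted p = 0.0154). Dio2, the deiodinase that activates thyroid hormone in glia, rose by 1.86 ± 0.36 (limma adjusted p = 0.0173). It read 7.33 and 7.96 in Atm-/- and 6.16 and 5.42 in Atm+/+. The last of these was under background, and the fit takes it at face value. The risen genes Dusp1 and Per1 also respond to neuronal activity, and 11 of 12 immediate early genes rose in these samples, with a mean log2 signal of 10.87 to 10.97 in Atm-/- and 7.37 to 7.45 in Atm+/+. Of 13 tested markers of endothelium and pericytes 4 also rose and 0 fell, with a mean log2 signal of 8.77 to 9.02 in Atm-/- and 8.13 to 8.30 in Atm+/+ and a median change of 0.50. The part of either group in the rises of Dusp1, Per1, Dio2 and the targets was not tested. Leaving out Atm-/- replicate 1 left 1 of the 3 rises and leaving out Atm-/- replicate 2 left 0, while 11 and 9 genes rose without Atm+/+ replicate 1 and 2. Calls over all tested genes moved the same way, with 2.25% and 2.07% higher without Atm-/- replicate 1 and 2, and 20.4% and 16.7% higher without Atm+/+ replicate 1 and 2.

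**Figure D5:**
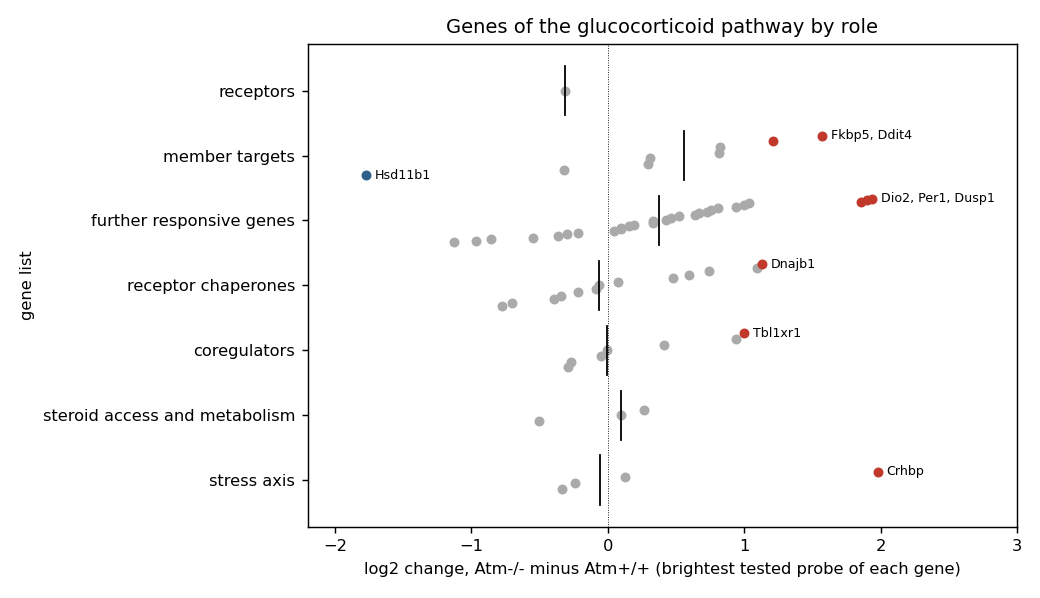
Log2 change, Atm-/- minus Atm+/+ (horizontal axis), of the brightest tested probe of each gene, by role (vertical axis), with red for a rise and blue for a fall past the threshold, grey otherwise, and black bars at the medians. Rises stand in 5 of the 7 lists, and Hsd11b1 is the 1 gene shown that fell.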

How the data were processed

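Per the labels' protocols, mouse brain total RNA was isolated with Trizol, then amplified and biotinylated for Illumina arrays. The log2 values analysed are those the authors deposited. Software, background treatment and normalization were not given in the sources used here. Base 2 was inferred from the range of 4.47 to 16.1. Sorted arrays differed by at most 0.0792 at equal rank, as quantile normalization would leave them, so these values cannot show a common shift of most genes. A table of signals before normalization holds 8 columns whose names match no sample label, and they were not used, so the planned neqc alternative was not run.

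The background level was the mode of all values (5.054, kernel density of bandwidth 0.05) plus 3 SD of the values below it (0.195). Of the probes, 34885 carry 1 symbol, 18 several and 10378 none. Genotypes were compared with limma 3.58.1 (lmFit, eBayes; R 4.3.3) over all 22383 tested probes, with no covariate, 2 residual and 5.22 prior degrees of freedom. The test was checked on simulated data with the same spread in both genotypes. The wider spread of the Atm+/+ arrays was not simulated. A probe at background on both arrays of a genotype gives a fold only as a bound against that level. The number of arrays limits the precision.

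The stricter promoter element was added after the first element's matches were seen. The members and lists were chosen with earlier results of these data known. All member probes are named. Of the other lists, up to 4 genes past the threshold are named, plus Hsp90aa1, Fkbp4, Ncoa1, Hsd11b2, Abcb1a, Crh and Dusp1. Alternatives were other filters and background levels, cyclic loess, an intensity trend, robust eBayes, the replicate number as a block, and leaving out each array.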

Additional observations from a re-analysis of the deposited data

How the results depend on the processing

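Without a filter on dim probes, with probes above background on all 4 arrays, with the background level at 2 SD, with cyclic loess, an intensity trend or robust eBayes, between 2360 and 3449 probes passed, against 2919 as reported. Under these settings 2 member probes rose and 3 fell, except that 4 rose with the intensity trend, Klf9 and Sgk1 being added. With the replicate number as a block (replicate block), 4574 probes passed, and 2 member probes rose and 3 fell. Same-numbered arrays had deviations that correlated at 0.059 across probes and share only a number, so the fit without the block stands. Leaving out 1 array gave 666 to 8320 probes, 0 to 5 member probes that rose and 0 to 3 that fell. With any array left out, its genotype has 1 array, assumed to vary like the other genotype's. The difference between targets and the receptor moved from 0.301 to 0.162 with no filter, where the dim probes enter, to 0.677 with one probe per gene and to 0.900 without the Hsd11b1 probes. It could not be computed for probes above background on all 4 arrays, since no receptor probe is left. Leaving out 1 array gave -0.144 to 0.259 for Tsc22d3 ILMN_2648224 and -0.962 to 0.282 for Hsp90aa1 ILMN_2668319. The sign turned without Atm+/+ replicate 1 for both, at -0.144 and 0.282, and neither passed the threshold there. The neqc alternative was not run. Dim signal limits the receptors, Hsd11b2, Abcb1a, Ncoa1 and Crh.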
